A study of Homo sapiens with 6 samples.

Results

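To follow how the H3K4me2 landscape of prostate cancer cells changes with the length of exposure to an LSD1 inhibitor, the ChIP-seq peak lists of LNCaP cells given GSK2879552 for 4 h (GSK 4 h) and for 24 h (GSK 24 h) were compared with each other, without the vehicle list. Every record of the 2 lists on chromosomes 1 to 22 was used as a region, which gave 124364 regions at 4 h and 123292 at 24 h, or 247656 of the 359493 records in the 3 lists of the series. LNCaP is an androgen-responsive prostate cancer line, and before treatment its cells were held for 3 days in charcoal-stripped serum, which is depleted of androgens. By the treatment label both groups received the androgen DHT together with GSK2879552 and differ only in the time of exposure, although the treatment protocol names GSK2879552 alone and the design text gives only 24 h. Each group had 2 replicates that the authors combined into 1 list, and the labels give both replicates of a group the same index pair. With the replicates combined no value has a spread between them, no difference between the times was tested, and the 95% intervals given below cover counting error only.

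H3K4me2, the dimethylated form of lysine 4 of histone H3, marks active and poised enhancers and the flanks of active promoters. LSD1 (KDM1A) is a flavin-dependent enzyme that removes methyl groups from mono- and dimethylated H3K4, and GSK2879552 inactivates it irreversibly. In prostate cells LSD1 acts together with the androgen receptor, the nuclear receptor that DHT activates, as well as in repressor complexes with CoREST and histone deacetylases.

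The 4 h list was the deeper one. Depth, as recovered from the peak values, was 10.1 tags per kb of genome at 4 h and 8.98 at 24 h, a ratio of 0.887. The shortest record, taken as the fragment length used by the peak caller, was 186 bp at 4 h and 219 bp at 24 h, a difference of 33 bp. Lengths are given below as deposited and, for the main values, with the fragment length subtracted, and gaps as deposited. The median number of fragments over a summit was 21 at both times. Coordinates are those of hg19. Since the gene table at hand is in another build, neither the genes beside these regions nor marker genes of prostate cells were analysed here.

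The number of regions hardly differed between the times, but their lengths did. Covered length was 69.6 Mb at 4 h and 73.1 Mb at 24 h, a log2 ratio of 0.071, against a log2 ratio of -0.012 for the number of regions. Both directions depended on the processing. Among regions whose -log10 q (the peak caller's q-value, a p-value adjusted over the list, on a negative log scale) reached 10, those at 24 h covered less (log2 ratio -0.067), and with regions less than 1 kb apart merged the 24 h list held more of them (0.021). The median region was 439 bp long at 4 h and 495 bp at 24 h. In the short range, 37917 regions of at most 300 bp (30.5%) were found at 4 h and 27529 (22.3%) at 24 h. At the other end of the range the order was the opposite, with 675 regions of at least 2 kb at 4 h and 391 at 24 h. Above its fragment length, the median region extended 253 bp at 4 h and 276 bp at 24 h, and the 99th percentile 1636 and 1498 bp. In every length step from 226 to 1494 bp the 24 h list held more regions than the 4 h list. No 24 h region was shorter than 219 bp, so the range from 186 bp up to there was open to the 4 h list alone.

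**Figure D1:**
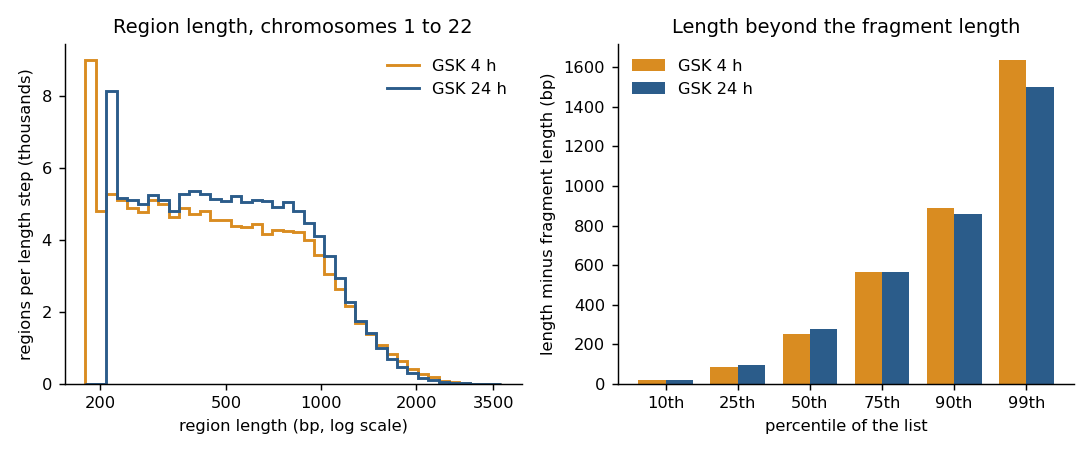
Left, number of regions (in units of 1000) in each length step (bp, log scale) in the GSK 4 h and GSK 24 h lists; right, percentiles of region length after subtraction of the fragment length of the list (bars, bp). The 24 h line lies above the 4 h line from 226 to 1494 bp, and at the 99th percentile the 4 h bar (1636 bp) is higher than the 24 h bar (1498 bp).

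The next question was how the regions of the 2 lists correspond by position. Of the 4 h regions, 97441 overlapped a 24 h region by at least 1 bp, and 26923 (21.6%, interval 21.4 to 21.9) did not. Of the 24 h regions, 96060 overlapped a 4 h region and 27232 (22.1%, interval 21.9 to 22.3) did not. By bases, 51.5 Mb were covered in both lists, which is 74.1% of the 4 h length and 70.5% of the 24 h length. In 76711 cases a 4 h region and a 24 h region overlapped each other and nothing else (matched 1 to 1), which accounts for 61.7% of the regions at 4 h and 62.2% at 24 h. The rest of the overlapping regions were those in which a single region of one list lay over several of the other, or the parts of such a region.

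Matched regions were slightly longer at 24 h by the median, and the short ones differed most. Their median length was 554 bp at 4 h and 586 bp at 24 h, and the median log2 ratio was 0.048 (interval 0.045 to 0.051). Over all matched regions, 16.8% (12885) were more than 1.5 times as long at 24 h and 9.69% (7434) more than 1.5 times as long at 4 h. In the shortest 10% of matched regions the median log2 ratio was 0.24, with lengths of 224 bp (4 h) and 263 bp (24 h). In the longest 10% it was -0.015, with 1318 and 1301 bp. Subtraction of the fragment length turned the median over all matched regions to -0.044, so the direction of the overall length difference depended on the fragment length. It stayed positive, at 0.14, in the shortest 10%.

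The ends of matched regions moved to either side. At 24 h the region extended beyond the 4 h region at both ends in 20573 cases (26.8%) and lay inside it at both ends in 14850 (19.4%). In the remaining cases a region was displaced, with the left end further out and the right end further in (20491) or the reverse (20214), apart from 583 with at least 1 identical end. No matched region kept both ends to the base pair. The median end lay 11 bp (left) and 9 bp (right) further out at 24 h, and the middle 50% of left ends ranged from 66 bp inward to 88 bp outward.

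Broad matched regions were lower at 24 h than at 4 h, whereas short matched regions held nearly the same number of fragments at both times. Height is the number of fragments at the summit relative to the number the peak caller expects anywhere in the genome for that list, so that a region at 10 holds 10 times the fragments of an average position. The median matched region stood at 13.8 at 4 h and 12.7 at 24 h, and the median log2 ratio was -0.15. Equal fragment numbers in both lists give a log2 ratio of -0.063, because the genome-wide background at 24 h was 1.04 times that at 4 h. The 5 shortest of 10 length classes all had this median of -0.063. From there the ratio fell with every length class, to -0.33 (interval -0.35 to -0.32) in the longest 10%, where heights were 39.9 at 4 h and 31.0 at 24 h and 79.2% of regions were lower at 24 h. Of all matched regions, 18.5% were more than 1.5 times lower at 24 h and 7.23% more than 1.5 times higher. Among the longest 10% these shares were 27.2% and 1.41%, and among the shortest 10% they were 9.03% and 7.66%. Longer regions were also the higher ones, so length and height cannot be told apart here. Matched regions had to pass the threshold of the peak caller in both lists. The shortest 10% had median heights of 6.91 at 4 h and 7.12 at 24 h, and regions without overlap in the other list stood at 6.91 and 6.61. A short region that fell below the threshold at either time is thus left out, and the part of this selection in the contrast was not tested. Measured by the deposited fold enrichment, which is relative to the surroundings of each peak, the median log2 ratio was smaller, at -0.086.

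Summits of matched regions lay close together. The median distance between the 4 h and the 24 h summit was 82 bp, with 34.5% within 50 bp, 79.3% within 200 bp and 343 summits at the same base pair. At 15906 regions (20.7%) the summits were more than 200 bp apart. This share was 6.8% in the shortest and 40.6% in the longest 10%, but relative to region length the median distance fell from 24.9% to 10.18%. The 3 largest distances among matched regions whose -log10 q reached 10 at both times were found in broad regions whose ends hardly moved. The first lay on chromosome 15 (41219870 to 41223109 at 4 h), with a length of 3240 bp at 4 h and 3252 bp at 24 h and with summits 2043 bp apart. Its height was 80.2 at 4 h and 65.1 at 24 h. In the second, on chromosome 3 (71631129 to 71633802), the summits were 1777 bp apart at heights of 49.4 and 44.8. In the third, on chromosome 7 (124404528 to 124406653), they were 1650 bp apart at heights of 61.1 and 39.2. In each of the 3 the summit moved from one side of the region to the other while the 24 h region stayed at 0.933 to 1.01 times its 4 h length.

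**Figure D2:**
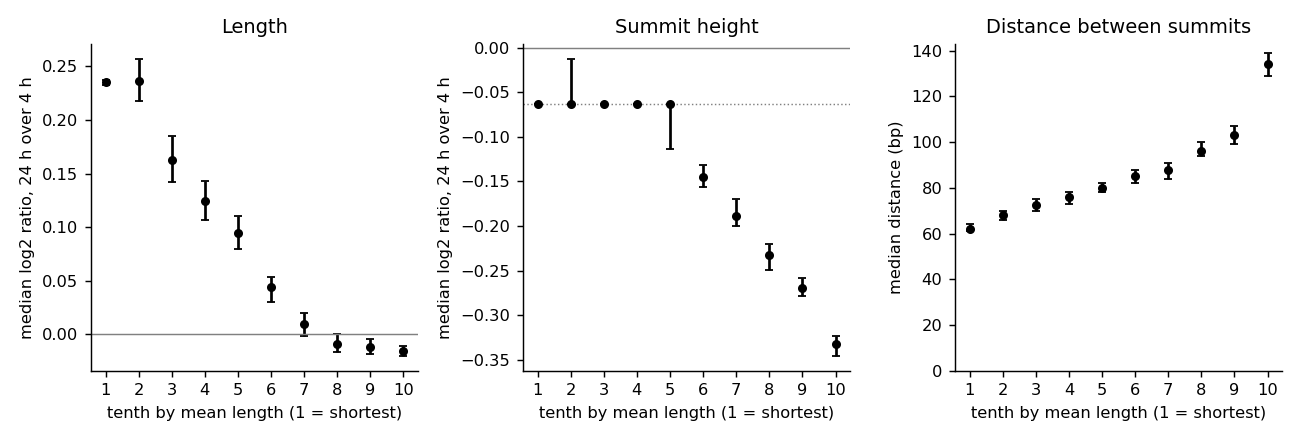
Medians over regions matched 1 to 1, in 10 classes of equal size by mean length of the region in both lists (1 is the shortest), with 95% counting intervals of the median as bars. Left, log2 length ratio of 24 h over 4 h; middle, log2 height ratio, where the dotted line marks equal fragment numbers (-0.063); right, distance between summits (bp). Length ratios fall from 0.24 to -0.015, height ratios fall from -0.063 to -0.33 and summit distances rise from 62 to 134 bp.

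The largest length changes among matched regions whose -log10 q reached 10 at both times went up to 5.45 times. A region on chromosome 7 was 240 bp long at 4 h (103783206 to 103783445) and 1309 bp at 24 h (103782191 to 103783499), and its height was 9.56 at 4 h and 18.3 at 24 h. On chromosome 12 a region of 257 bp (7122947 to 7123203) became 1217 bp long at heights of 29.8 and 33.1, with summits 17 bp apart. On chromosome 1 a region of 270 bp (8631702 to 8631971) became 1251 bp long at heights of 14.9 and 15.3. In the other direction, a region on chromosome 18 (21268738 to 21270458) was 1721 bp long at 4 h and 426 bp at 24 h, with heights of 34.01 and 28.5. A region on chromosome 1 (167905472 to 167906616) went from 1145 to 290 bp with summits 24 bp apart, and its height was 43.0 at 4 h and 24.9 at 24 h. On chromosome 10 a region of 1375 bp (92647172 to 92648546) went to 385 bp, although its height was 15.4 at 4 h and 20.3 at 24 h. Length and height therefore did not always move in the same direction in single regions.

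Regions were spaced more widely at 24 h. The median gap from a region to the next on the same chromosome was 9565 bp at 4 h and 10230 bp at 24 h. At 4 h 25.2% (interval 24.99 to 25.5) of regions had the next region within 1 kb, and at 24 h 23.5% (23.2 to 23.7). Gaps of at most 100 bp numbered 5397 at 4 h and 4974 at 24 h, those of at most 200 bp 13496 and 11487, and those of at most 1 kb 31378 and 28928, which is 0.922 times as many at 24 h for the last and 0.851 times for those of at most 200 bp. No gap in either list was shorter than 52 bp. The part of the difference in fragment length in these gap numbers was not tested.

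Narrow gaps were bridged in the other list more often than wide ones. Of the 4 h gaps of at most 1 kb, 25.2% (7920 of 31378) were bridged by a 24 h region that reached into both sides, and of the 24 h gaps 22.6% (6537 of 28928) were bridged by a 4 h region. For gaps of 52 to 100 bp these shares were 53.9% (interval 52.6 to 55.2) and 51.0% (49.6 to 52.4). They fell to 9.83% (9.12 to 10.6) and 7.79% (7.12 to 8.51) for gaps of 301 to 500 bp and to 2.01% and 1.84% for gaps of 501 to 1000 bp. The 4 h gaps were thus bridged more often than the 24 h gaps over all sizes, at 52 to 100 bp and at 301 to 500 bp, and in the other size classes up to 1 kb the intervals overlapped. A longer fragment bridges gaps more easily, and the part of the 33 bp difference in fragment length in this result was not tested. A bridging region must also be longer than the gap, and the median region length was 439 bp at 4 h and 495 bp at 24 h. How much of the fall with gap size is built in by this was not tested.

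**Figure D3:**
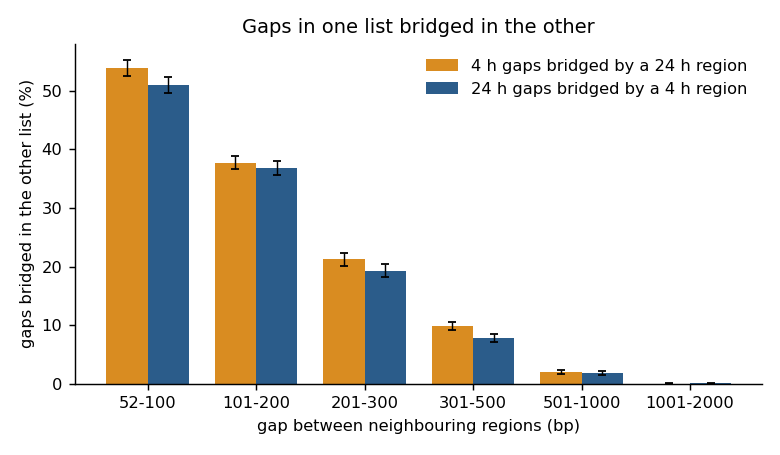
Share of gaps between neighbouring regions that a single region of the other list bridges (bars, %, with Wilson 95% intervals), by gap size in bp, for 4 h gaps bridged at 24 h and for 24 h gaps bridged at 4 h. Shares fall from 53.9% and 51.0% at 52 to 100 bp to 0.026% and 0.073% at 1001 to 2000 bp.

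More regions fused than split between 4 and 24 h, an order that depended on the processing. At 24 h 7642 regions (6.2%) lay over 2 or more 4 h regions, whereas 6279 of the 4 h regions (5.05%) lay under 2 or more 24 h regions. This order was the opposite in the stronger part of the lists (-log10 q from 10 upward), where 1282 fused and 1530 split, and with records within 1 kb merged, where 390 fused and 1027 split. Regions that split had a median length of 1019 bp at 4 h and a median height of 20.2, and their parts at 24 h were 457 bp long by the median, with 128 bp between them in all. The highest part was lower than the 4 h region in 72.7% of cases (median log2 ratio -0.27). Regions that fused had a median length of 930.5 bp at 24 h and a height of 14.8, against 14.3 for the highest of their 4 h parts (median log2 ratio, 24 h over 4 h, -0.025). Matched regions of similar length, those with a median of 990 bp at 4 h, were lower at 24 h to the same degree as the split ones (72.95% of cases, median log2 ratio -0.27). Fused regions were lower at 24 h in 51.8% of cases, less often than these matched regions. Split and fused values set 1 region against the highest of several parts, and the part of this choice was not tested. In 763 of the split regions (12.2%) the 4 h summit lay in a place that no 24 h region covered, and in 1039 of the fused regions (13.6%) the 24 h summit lay in a place that no 4 h region covered.

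At 24 h 13 of the 4 h regions lay in 4 parts, the most found, and the 3 longest of them outside chromosome 8 are described. The first was 2441 bp long on chromosome 18 (23669171 to 23671611) with a height of 32.4, and at 24 h it was covered by 4 regions with heights between 13.7 and 22.4. The second was 2343 bp long on chromosome 1 (220959298 to 220961640) with a height of 57.9, and its 4 parts stood between 19.8 and 39.2. The third was 2287 bp long on chromosome 16 (88850077 to 88852363) with a height of 67.5 against parts of 19.8 to 32.0. All 12 parts were lower than the 4 h region they came from, and the local background at these 4 h regions, which is what the peak caller expected from their surroundings, was 5.48, 11.9 and 12.5 times the genome-wide one.

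In the other direction, 5 regions at 24 h each joined 4 regions of the 4 h list, and the 3 longest of them outside chromosome 8 are described. On chromosome 11 (3914349 to 3916359) a region of 2011 bp with a height of 14.8 lay over parts with heights of 8.5 to 13.3. On chromosome 17 (71560588 to 71562398) a region of 1811 bp with a height of 17.8 lay over parts of 9.03 to 15.9. On chromosome 2 (92324179 to 92326063) a region of 1885 bp with a height of 104.8 lay over parts of 42.5 to 70.1. The local background of this last region was 38.9 times the genome-wide one, against 3.66 and 2.96 for those on chromosomes 11 and 17. Its fold was only at the 2.76 percentile of the list, against 19.3 and 61.9. No filter for sites of artefactual signal was applied.

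Regions found at one time only were weak regions of their list. Those of the 4 h list had a median length of 251 bp, a median height of 6.91 and a median fold percentile of 26.0 (the rank of the fold enrichment over local background within the list, 100 being the highest), against 537 bp, 13.8 and 58.8 for the overlapping ones. Those of the 24 h list had 293 bp, 6.61 and a percentile of 29.7, against 590 bp, 13.2 and 57.9. A median of 13 fragments covered their summits in each list. Set against 21.6% and 22.1% over the whole lists, the share found at one time only was 57.7% at 4 h and 57.6% at 24 h in the weakest 10% by -log10 p, and 6 (4 h) and 2 (24 h) regions remained in the strongest 10%. A summit of 13 fragments compares with the lowest of 7 in either list, and the absence of a region from a list is no measurement of 0 signal. Regions next to the 1 bp limit were alike on both sides of it. The 1303 regions at 4 h that overlapped by at most 50 bp had a median height of 6.91, and the 1163 that missed by less than 50 bp had 7.44. At 24 h both kinds (1103 and 933 regions) stood at 6.61.

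Among the stronger of them, the 2 times differed in where these regions lay. Taking those whose -log10 q was 10 or more, 1521 regions were found at 4 h only and 1359 at 24 h only. These are 2.74% of the 55507 regions of that strength at 4 h and 2.64% of the 51558 at 24 h. Of the 4 h regions, 743 (48.8%, interval 46.3 to 51.4) lay within 1 kb of a 24 h region and 322 (21.2%, 19.2 to 23.3) more than 10 kb from any. Of the 24 h regions, 482 (35.5%, 33.0 to 38.05) lay within 1 kb of a 4 h region and 489 (36.0%, 33.5 to 38.6) more than 10 kb away. The 4 h regions within 1 kb stood in strong surroundings, with a local background of 4.15 times the genome-wide one, and those at 24 h in weaker ones (2.33 times). For regions over 10 kb away the median height was 10.1 at 4 h and 10.17 at 24 h, and the median local background equalled the genome-wide one in both lists. Among all regions found at one time only, whatever their strength, 28.4% at 4 h and 34.9% at 24 h lay more than 10 kb away. In this share the stronger 24 h regions were close to 24 h-only regions as a whole, and the stronger 4 h regions were below 4 h-only regions as a whole. Above the 90th fold percentile, 72 regions were found at 4 h only and 143 at 24 h only. They made up 0.27% and 0.53% of all regions found at one time only, and 30 and 91 of them were more than 10 kb from the other list. The 24 h list thus held more of the isolated regions, and the part of depth and fragment length in this was not tested.

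**Figure D4:**
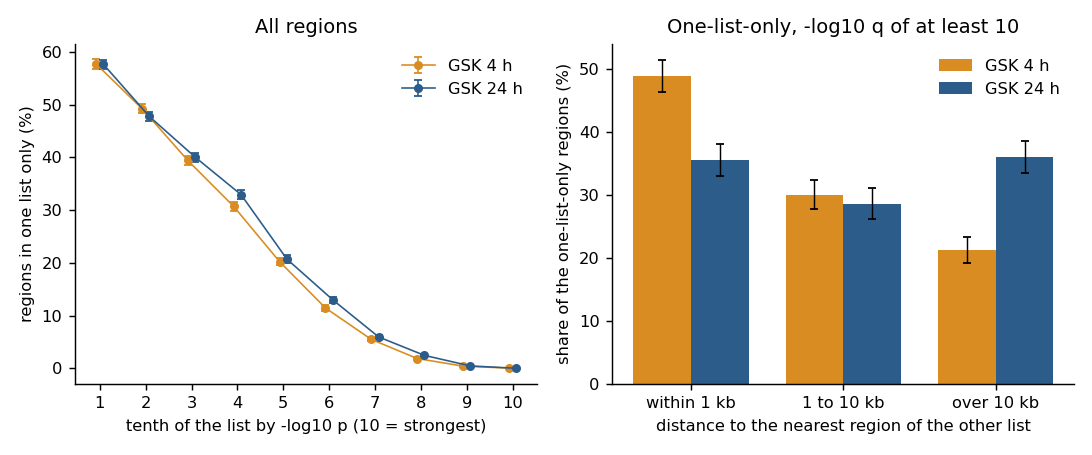
Left, share of regions that overlap nothing in the other list (%), in 10 classes of equal size by -log10 p (10 is the strongest); right, those whose -log10 q reached 10 by distance to the nearest region of the other list, as a share of such regions (%). Bars on the points and columns are Wilson 95% intervals. Both lists fall from near 58% to near 0% with strength, and the 24 h column is the higher one only at over 10 kb (36.0% against 21.2%).

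The 5 strongest regions of each kind showed the same contrast. At 4 h the first lay on chromosome 5 (70585449 to 70586276), 140 bp from the nearest 24 h region, with 109 fragments at the summit, a height of 57.9 and a -log10 q of 40.9. The second lay on chromosome 20 (47894735 to 47895033), 275 bp from a 24 h region, with a height of 55.8. The third, on chromosome 17 (71308313 to 71308862), was 1442 bp away and had a height of 66.4. The fourth, on chromosome 17 (79869558 to 79869881), and the fifth, on chromosome 6 (158243610 to 158244118), were 372 and 391 bp away, with heights of 47.3 and 39.9. All 5 lay in a local background of 6.03 to 14.7 times the genome-wide one, and their folds were only in the 37.2 to 71.1 percentile range of the list. Each was thus a high summit that stood within 1442 bp of a 24 h region and above a raised background.

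At 24 h, 4 of the 5 stood alone. The first lay on chromosome 5 (128410285 to 128410717), 18987 bp from the nearest 4 h region, with 40 fragments, a height of 20.3, a fold of 10.4 (percentile 98.2) and a -log10 q of 28.3. The second, on chromosome 2 (236211242 to 236211636), was 32520 bp away, with 34 fragments and a fold of 11.8 (percentile 99.3). The third, on chromosome 17 (867027 to 867417), was 14287 bp away with a fold of 10.4. The fifth, on chromosome 4 (73953216 to 73953832), was 15922 bp away with a fold of 9.05. Only the fourth, on chromosome 1 (46322296 to 46322680), had a 4 h region nearby, at 198 bp, with a height of 22.4 and a fold of 7.76. Local background was 1 to 2.44 times the genome-wide one in these 5.

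The chromosomes differed in how much of the 24 h list was found at 24 h only, and besides those at either end of the range a few others are named here after their values were seen. Chromosome 4, which is poor in genes, had the highest share with 28.4% (interval 27.3 to 29.5), followed by chromosome 13 with 27.9% (26.4 to 29.5). Chromosome 19, which is rich in genes, had the lowest with 10.6% (9.67 to 11.6), followed by chromosome 22 with 15.3% and chromosome 16 with 15.6%. At 4 h the range was narrower, from 15.7% (14.6 to 16.8) on chromosome 19 to 25.4% (23.3 to 27.6) on chromosome 21, and chromosome 4 had 22.8%. These values stand against 21.6% (4 h) and 22.1% (24 h) over all chromosomes. Region numbers followed this pattern only in part. Chromosome 4 had 6117 regions at 4 h and 6471 at 24 h, a ratio of 1.06, and chromosome 13 had 3100 and 3244. Chromosome 22 had 2322 and 2173, and chromosome 20 had 3381 and 3165, with ratios of 0.936 in both. Chromosome 19, with the lowest share, had 4165 and 4035, a ratio of only 0.969. On chromosome 21 the ratio was 0.958, although its share found at 24 h only was 23.2%. In all, 8 of the 22 chromosomes had more regions at 24 h and 14 had fewer.

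Regions on chromosome 19 were also stronger, with a median -log10 q of 15.3 at 4 h against 7.61 on chromosome 4. When only the weaker 50% of each list by -log10 p was used, a choice made after the data were seen, 28.8% (26.4 to 31.3) of the chromosome 19 regions at 24 h and 45.4% (43.8 to 47.1) of those on chromosome 4 were found at 24 h only, against 39.6% over all chromosomes. At 4 h the order was the opposite, with 42.8% on chromosome 19 and 38.4% on chromosome 4 against 39.4% over all. The low share of chromosome 19 at 24 h therefore remained among weak regions, and the one at 4 h did not.

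Across the 22 chromosomes, the share found at 24 h only fell with the number of 4 h regions per Mb (Pearson's r = -0.91, Spearman's rho = -0.85). For the share found at 4 h only the values were -0.73 and -0.72. The 24 h share counts regions that miss the 4 h list, so few 4 h regions on a chromosome can raise it directly. The 4 h share was set against the density of its own list. The coefficients of the 24 h and the 4 h share are therefore not like for like and cannot be compared. How much of the 24 h relation is built in was not tested. The chromosomes share 1 library pool per list and are not replicates, so the coefficients are descriptions. Region number per Mb ranged from 32.0 on chromosome 4 to 70.5 on chromosome 19. Matched regions were lower at 24 h on all 22 chromosomes by the median log2 height ratio, from -0.063 on chromosomes 3 and 4, which is the value of equal fragment numbers, to -0.29 on chromosome 22.

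**Figure D5:**
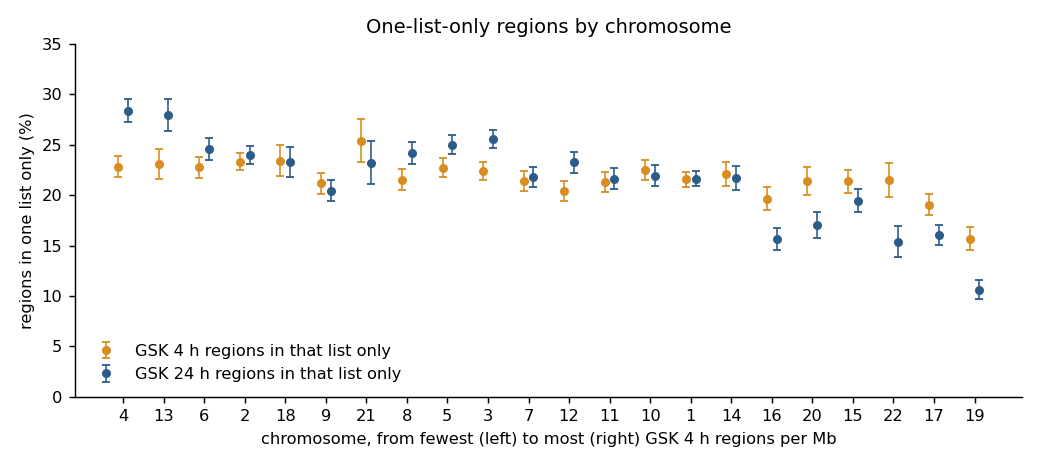
Share of regions of each list that overlap nothing in the other list (points, %, with Wilson 95% intervals), by chromosome in order of GSK 4 h regions per Mb. At 24 h the points fall from 28.4% on chromosome 4 to 10.6% on chromosome 19, and at 4 h they stay between 15.7% and 25.4%.

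A like gradient was seen when the genome was cut into bins of 1 Mb and these were ranked, over all chromosomes together, by their regions in both lists. Which chromosomes the sparse bins came from was not analysed. The sparsest 547 bins, with at most 45 regions in all, held 7571 regions at 4 h and 8995 at 24 h, a ratio of 1.19, and 380 of them (69.5%) had more at 24 h. Of the 24 h regions there, 38.9% (37.9 to 39.9) were found at 24 h only, and of the 4 h regions 25.8% (24.8 to 26.8) at 4 h only. The densest 547 bins, with 133 to 280 regions, held 45334 and 43251 regions, a ratio of 0.954, and 140 of them (25.6%) had more at 24 h. There the share found at 24 h only was 15.4% (15.1 to 15.8), and the share found at 4 h only was 19.1% (18.8 to 19.5). Ratios of the classes between them were 1.05, 0.992 and 0.968, from sparse to dense. The share found at 24 h only thus varied more between sparse and dense bins than the share found at 4 h only. Region strength was not matched between the bin classes, and its part in this gradient was not tested.

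Runs of many regions were somewhat fewer at 24 h. When regions with gaps of at most 10 kb were joined into runs, 4319 runs held at least 5 regions at 4 h and 3943 at 24 h, with 23.1% and 20.9% of all regions. The longest run at 4 h spanned 137 kb on chromosome 18 (55844198 to 55981646) with 30 regions, of which 11 had no overlap at 24 h, where 24 regions lay in the same span. The longest at 24 h spanned 118 kb on chromosome 12 (64974312 to 65091894) with 30 regions, 8 of them without overlap at 4 h, where 24 regions lay in it. Of the regions of the other list, 4 in the first span and 3 in the second had no overlap. Over the whole lists, 21.6% of 4 h and 22.1% of 24 h regions had none. Each run was picked from its own list by its size, so fewer regions in the other list can follow from that choice. Single regions with no other within 10 kb made up 25.1% of the 4 h and 26.4% of the 24 h list. With these included, all runs together spanned 256 Mb at 4 h and 259 Mb at 24 h. Run size counts regions, and the part of fused and split regions in these numbers was not tested. The longest region was the same at both times, on chromosome 1, with 3648 bp at 4 h (152081334 to 152084981) and 3465 bp at 24 h (152081534 to 152084998). Its height was 78.1 at 4 h and 74.3 at 24 h, in a local background of 21.5 and 21.4 times the genome-wide one.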

How the data were processed

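LNCaP H3K4me2 ChIP-seq libraries were analysed from 1 narrowPeak list per group. The submitters' processing notes name BWA 0.7.2-r351, SAMtools 0.1.18 and MACS2 2.0.10.20131216 with hg19. Settings and an input control are not given in the sources used here. The fold enrichment (a ratio to local background), the −log10 p-value, the −log10 q-value and a display score (10 times −log10 q) are those deposited by the authors, who combined both replicates, and are not normalised between lists. Vehicle entered no comparison.

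Regions were compared by overlap (numpy 2.4.6, pandas 2.3.3, Python 3.11.15). No records touched. For each region a whole-number summit pileup was sought that gives both the fold, (pileup + 1)/(background + 1), and the Poisson p-value within 0.001, and was found for 100% of both lists. The lowest background is the genome-wide one, and divided by fragment length it gives depth. Shares have Wilson intervals (statsmodels 0.14.6) and medians binomial order-statistic intervals. Overlap and pileup steps were tested on simulated data. Alternatives varied the minimum −log10 q, list length, merging, overlap rule, matching and chromosomes used.

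Named are the 5 regions of each list with the highest −log10 q without overlap, 3 each in the most parts, with the largest length ratios and with the largest summit distances (both of the latter at a −log10 q of at least 10 at both times), the longest region and run of each list, and the chromosomes at the ends of the range. Regions on chromosome 8 were passed over. The comparison, rules and alternatives were chosen with earlier results of these data known.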

Additional observations from a re-analysis of the deposited data

Results flagged for a closer look

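Records outside chromosomes 1 to 22 entered no main comparison, and those on chromosomes X and Y entered some of the alternatives only. Both lists held more records outside chromosomes 1 to 22 than the 3925 of the vehicle list. There were 5412 (4.17% of the list) at GSK 4 h and 5260 (4.09%) at GSK 24 h, against 3.88% for vehicle. Sex chromosomes, haplotype and unplaced sequences are among them, and the cause of the difference was not tested.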

How the results depend on the processing

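No paired analysis was possible because the authors pooled the replicates of a time into 1 list, and leaving out a replicate was not possible for the same reason. Planned values near gene starts, for gene lists and for prostate marker genes were not run, since the genes at hand are placed on another build. A median of 13 fragments at regions found at one time only limits what their absence means. With so many regions an interval is narrow and small shifts exceed it. Of 67 alternative values 17 stayed within the interval or count limit, 47 moved and 3 log2 ratios changed sign. Each value was labelled by itself, so a changed order between the 4 h and the 24 h share or count is not among the 3.

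The log2 ratio of region number (24 h over 4 h) was -0.099 with a minimum -log10 q of 5, -0.11 with 10 and turned to 0.021 with records within 1 kb merged. That of covered length was 0.0081 at 5 and turned to -0.067 at 10. The median log2 length ratio of matched regions was 0.011 at 10, 0.026 with 50% of both regions covered, 0.068 when paired by summits within 200 bp, and turned to -0.044 with the fragment length subtracted. Median summit distance was 78 bp both at 10 and with 50% of both regions covered, and 64.5 bp between midpoints. The median log2 height ratio was -0.19 at 10, -0.18 with 50% of both regions covered and -0.086 for the deposited fold.

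A minimum -log10 q was set on both lists at once, so a region whose partner fell below it counted as without overlap. The share of 4 h regions with overlap was then 77.2% at a minimum of 5 and 75.1% at 10. It was 78.7% at equal list length and 80.4% with records within 1 kb merged. With 50% of the region covered it was 69.6%, and with 50% of both 56.6%. For 24 h regions the share was 81.7%, 81.3% and 79.9% at 5, at 10 and merged, then 65.8% and 57.1% under the 50% rules. In the main comparison the 4 h share was the higher one (78.4% against 77.9%). At 5, at 10 and with 50% of both covered the 24 h share was higher. Against the whole other list, 2.74% (4 h) and 2.64% (24 h) of regions that reached 10 had no overlap. The next region lay within 1 kb for 21.6% (4 h) and 19.8% (24 h) at 5 and for 17.2% and 15.4% at 10. Regions in 2 or more parts numbered 1530 (4 h) and 1282 (24 h) at 10, and 1027 and 390 with records within 1 kb merged, so that in both cases more split than fused.

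The median percentile of regions found at one time only was 20.3 (4 h) and 21.3 (24 h) by -log10 p. With 50% of the region covered it was 31.7 and 32.2. With a minimum -log10 q of 10 in both lists, ranked within the regions kept, it was 45.1 and 49.9. With the other list extended by 500 bp, an alternative added after the data were seen, it was 29.2 and 32.2. At a minimum of 10 in both lists, the share found at 4 h only was 17.0% on chromosome 19 and 30.5% on chromosome 21. In the weaker 50% these shares were 42.8% and 43.6%. The share found at 24 h only was 8.38% on chromosome 19 and 25.2% on chromosome 4 at 10 in both lists. In the weaker 50% these were 28.8% and 45.4%.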
